A study of Rattus norvegicus with 150 samples.

Results

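The genes described here were the 150 whose level in rat gastrocnemius muscle was most consistently higher at 12 months than at 1 month after surgery, with every metal followed for 12 months. They were chosen out of 32545 genes in the count table, of which 25658 had a count in at least 1 library. For each gene the mean of log2(CPM + 1), where CPM is the usual share of a library's counts scaled to a fixed total, was taken in each group. The 1 month mean was subtracted from the 12 month mean in Ta, Co, P and DU, and the lowest of the 4 differences was the gene's score. Among the 10162 genes with a mean of at least 2 CPM in Ta muscle at 12 months, the 150 highest scores were taken. The genes were thus chosen by their measured levels at 1 and 12 months in these 4 metals, which are given as a description, with no test.

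The study followed muscle that held small metal cylinders, as fragments left in a wound would lie. Male Sprague-Dawley rats of about 30 days at purchase, given at least 2 weeks to acclimate, had 4 pellets of one metal placed in the gastrocnemius, 2 to a limb, each a cylinder of 1 mm diameter and 2 mm length. Tantalum (Ta) was the surgical sham, and the other sequenced groups held nickel (Ni), cobalt (Co), depleted uranium (DU) or a metal that the labels call P. That name is kept as written, although the series text lists lead (Pb) and nothing abbreviated P. Ta, Co, P and DU muscle was taken 1, 3, 6 or 12 months after surgery and Ni muscle at 1, 3 or 6 months, which gave 19 groups, 17 with 8 libraries and 2 (Ta at 1 month and Co at 6 months) with 7. Each time was its own cohort of rats, all operated on young, so time since surgery and age cannot be told apart. All groups carried pellets, and no library of unoperated muscle was analysed here. Which rat a library came from is not in the labels, and the p-values below rest on the spread of libraries within a group, which may be technical.

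The gastrocnemius is the large calf muscle, built mainly of fast fibres in the rat. Muscle around a lasting implant first goes through wound repair, with immune cells and satellite cells at work, and then holds the implant within a fibrous capsule. In a male rat operated on young, the months that follow also take the muscle from growth to full adult size. Tantalum is widely used in surgery because tissue tolerates it well, while cobalt and nickel ions are known to reach the tissue and to act on oxygen sensing and on immune cells. These points are background and are not results of these data.

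The count table names genes by Ensembl identifier, and of the 32545 identifiers, 0 matched a named gene in the RefSeq table at hand (assembly GRCr8), so what the 150 genes do cannot be stated. For the same reason the labelled tissue could not be checked against its markers, and the 36 lists of processes and cell types could not be counted among the genes. At most 2 identifiers are given for each direction of a comparison.

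Libraries held 12674115 to 21921859 counts (median 15778710), and the least different pair of libraries within any group still differed by 10.8 times its sampling noise (chi-square per degree of freedom). A pair of libraries at 3 and 6 months stood apart from their groups. In replicate 2 of DU at 3 months, 72 of the 150 genes were below 1 CPM and 31 had no count, and 122 were below every other library of its group. That library's median correlation with its group was 0.504 (Pearson, log2(CPM + 1), across genes), against 0.761 to 0.980 for libraries outside this pair, and 0.835 for the second of them, replicate 1 of Co at 6 months. In that library 33 of the genes were below 1 CPM, 123 were below every other library of its group, and the 10 most abundant genes took 47.7% of the counts. In the other 148 libraries the number of these genes below 1 CPM ran from 0 to 29, with a median of 5.5. Counts of edgeR calls between 3 and 6 months over 5 metals, in Co, in DU and for the difference between metals are also given without them. Fold changes of single genes are mostly given only with them. At 12 months, replicate 6 of DU had the correlation of 0.761, a TMM factor of 1.56 and a mean log2(CPM + 1) of the genes on the TMM scale of 2.99, where the other 7 libraries of its group were at 3.96 to 4.23. It entered the choice of genes and no test, and without it 111 of the 150 genes were chosen again.

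At the 12 month libraries the genes were mostly of moderate level. Their mean over the 12 month libraries ran from 2.00 to 512 CPM with a median of 16.2 CPM; 9 genes were above 100 CPM, 88 between 10 and 100 CPM and 53 below 10 CPM. Together they made up a median of 0.270% of the counts of a library at 1 month and 0.479% at 12 months. The scores ran from 0.43 to 1.48 on the log2(CPM + 1) scale, a scale that understates the change of genes of low level. The difference between 12 months and 1 month had a median over the genes of 0.74 in Ta, 0.85 in Co, 0.67 in P and 0.73 in DU. It was at least 1 in all 4 metals for 10 genes. DU gave the lowest difference for 51 genes, P for 38, Ta for 34 and Co for 27, so no metal alone set the scores. The last gene taken had a score of 0.4309 and the first gene left out 0.4294, so the set has no natural edge.

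How far the libraries of the 2 times overlapped differed between genes and metals. In Ta, every 12 month library was above every 1 month library for 27 of the genes, where this held for 0.718% of the 10162 genes eligible. The count was 35 in Co (1.23% of eligible genes), 22 in P (0.492%) and 16 in DU (0.758%). It held in all 4 metals for 1 gene. These counts follow from how the genes were chosen, and nothing is read from them. In the remaining genes at least 1 library at 12 months lay within the range of the 1 month libraries in some metal.

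The 2 genes with the highest scores looked unlike each other. ENSRNOG00000009047 had the highest score, 1.48, with differences of 2.11 in Ta, 1.48 in Co, 1.61 in P and 3.13 in DU. In Ta its level was 0.387 CPM in the lowest, 6.47 in the median and 35.2 in the highest library at 1 month, and 9.28, 36.9 and 98.7 CPM at 12 months. In DU it was 1.55, 3.00 and 84.3 CPM at 1 month and 22.5, 86.8 and 132 CPM at 12 months. In Ta at 1 month the highest library was 91.1 times the lowest. In DU at 3 months the lowest was at 0, in replicate 2, which stood apart. The 1 and 12 month libraries overlapped in both metals.

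ENSRNOG00000037435, with the next score, had narrower groups. In Ta it was at 0.753, 2.04 and 3.21 CPM (lowest, median and highest library) at 1 month and at 3.98, 7.39 and 8.60 CPM at 12 months. In P it was at 0.835, 1.13 and 1.72 CPM at 1 month and at 4.43, 7.83 and 16.5 CPM at 12 months. Every 12 month library was above every 1 month library in Ta, Co and P, while in DU 6 of 8 were.

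The genes with the highest level at 12 months were ENSRNOG00000008830 and ENSRNOG00000018233. The former was at 120, 219 and 328 CPM in Ta at 1 month and at 334, 460 and 538 CPM at 12 months. The latter was at 132, 149 and 182 CPM in Ta at 1 month and at 192, 219 and 239 CPM at 12 months. In both, the lowest 12 month library of Ta was above the highest 1 month library.

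**Figure D1:**
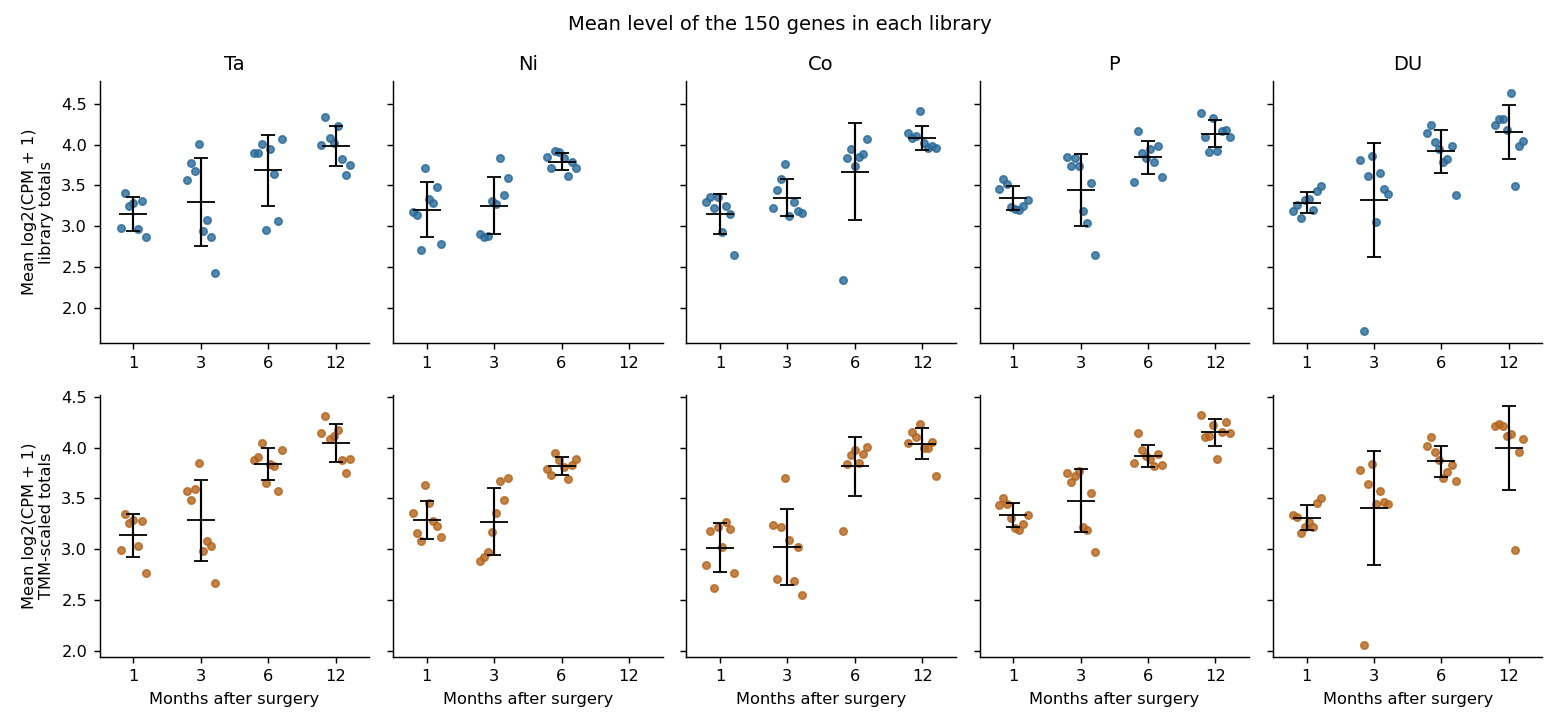
Mean of log2(CPM + 1) over the 150 genes in each library, by metal and months after surgery, with CPM from library totals (top) and from totals scaled by TMM factors (bottom); points are libraries, and the lines give the group mean and SD. On the TMM scale, every 6 month library of Ta, Ni, P and DU lies above every 1 month library of its metal. On library totals this is not so in any of them, and the 1 month libraries of Ta, Co, P and DU chose the genes. The low points at 3 and 6 months in the top row include replicate 2 of DU at 3 months (1.71) and replicate 1 of Co at 6 months (2.34).

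The course between the 2 chosen times was not part of the choice. Averaged over the 150 genes, log2(CPM + 1) in Ta was 3.15 ± 0.21 (SD, n = 7) at 1 month, 3.29 ± 0.54 (n = 8) at 3 months, 3.68 ± 0.44 (n = 8) at 6 months and 3.98 ± 0.24 (n = 8) at 12 months. In P the means were 3.35 ± 0.15, 3.44 ± 0.44, 3.84 ± 0.21 and 4.14 ± 0.17 (n = 8 each), and in DU 3.29 ± 0.13, 3.32 ± 0.70, 3.92 ± 0.27 and 4.15 ± 0.33 (n = 8 each). Co went from 3.15 ± 0.25 and 3.35 ± 0.23 to 3.67 ± 0.59 (n = 7) and 4.08 ± 0.15, and Ni, which was not used in the choice, from 3.20 ± 0.34 and 3.25 ± 0.36 to 3.79 ± 0.11 at 6 months. In each metal the 3 month mean was within 1 SD of the 1 month mean, and the step to the 6 month mean was larger.

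On the TMM scale, which corrects for the make-up of each library, the SD of this mean was largest at 3 months in Ta, Ni, Co and P. In DU it was 0.57 at 3 months and 0.41 at 12 months. Without replicate 2 the 3 month SD was 0.16, and without replicate 6 the 12 month SD was 0.097. Every 6 month library of Ta, Ni, P and DU and 6 of 7 of Co were above every 1 month library of the same metal. On library totals this held for 6 of 8 in Ta, 5 of 8 in Ni, 6 of 7 in Co, 7 of 8 in P and 7 of 8 in DU. The 1 month libraries of Ta, Co, P and DU chose the genes, so in those metals these counts are a description. Against the 3 month libraries on the TMM scale, 4 of 8 in Ta, 7 of 8 in Ni, 6 of 7 in Co, 8 of 8 in P and 4 of 8 in DU were above every one. On library totals at 3 months in Ta, replicates 1 to 4 had a mean level of the genes of 3.57 to 4.00 and replicates 5 to 8 of 2.43 to 3.08. In P the same numbers gave 3.73 to 3.85 and 2.65 to 3.53, and in Ni they lay the other way, at 2.87 to 3.31 and 3.27 to 3.83. In Co (3.22 to 3.76 and 3.13 to 3.29) and DU (1.71 to 3.86 and 3.05 to 3.66) they overlapped more. The low value in DU was replicate 2, and without it replicates 1 to 4 were at 3.61 to 3.86. On the TMM scale the split had no overlap in Ta, Ni or P. Nor did it in DU without replicate 2 (3.64 to 3.84 and 3.44 to 3.58). In Co the replicates overlapped on that scale too (2.70 to 3.70 and 2.55 to 3.09). The labels give no batch, and the part of this split in the results below was not tested.

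Gene by gene, the group means climbed at every step for 50 of the 150 genes in Ta, against 2.43% of eligible genes, for 57 in Co (4.44%), for 62 in P (5.80%) and for 55 in DU (11.0%). These counts use the chosen times at both ends and are a description. Between 3 and 6 months, which are outside the choice, the mean was higher at 6 months for 118 genes in Ta, 131 in Ni, 104 in Co, 137 in P and 144 in DU, where 40.9%, 52.0%, 22.7%, 39.4% and 78.2% of eligible genes were higher.

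The first test used the 79 libraries at 3 and 6 months of all 5 metals, none of which chose the genes. Of the 150 genes, 110 were higher at 6 months (edgeR quasi-likelihood test with metal as a term, adjusted p under 0.05 over 13863 genes tested), where 17.7% of all genes were called higher and 27.9% lower. The 110 genes had log2 fold changes from 0.24 to 1.59 with a median of 0.63, and 12 of them were over 1. Over all 150 genes the median log2 fold change was 0.52, against -0.06 over all genes tested, and 142 of 150 were above 0, against 43.1% of all genes. In bulk muscle, more cells of a type and more RNA per cell cannot be told apart. Without both libraries that stood apart, 122 were called, all higher. The calls over all genes in that fit are not given here, so nothing is read from the larger count. With library totals in place of TMM factors 83 were called, all higher, while over all genes 1257 were then called higher and 4298 lower, against 2448 and 3870.

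**Figure D2:**
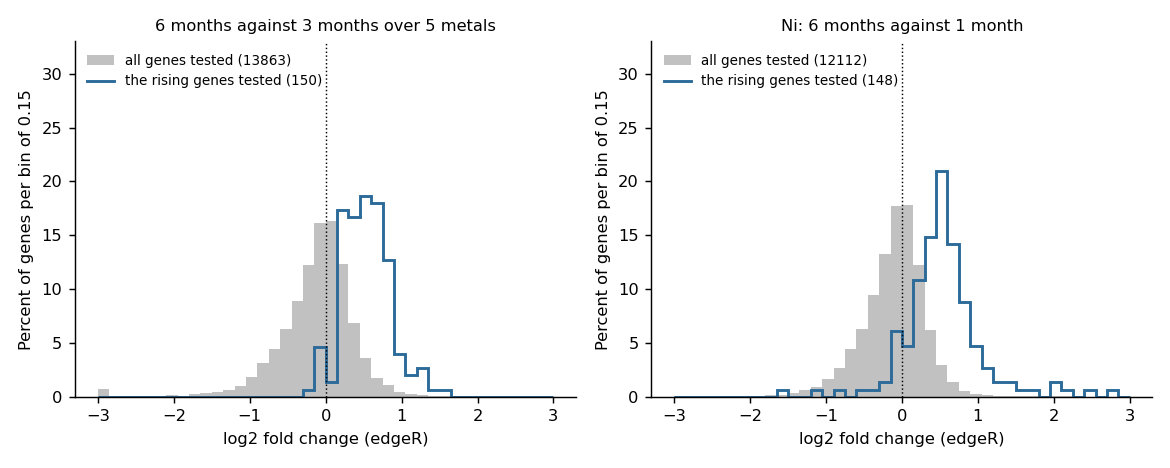
Distribution of log2 fold changes from edgeR over all genes tested (grey) and over the rising genes tested (blue line), as percent of genes in bins of 0.15, for 6 against 3 months over 5 metals and for Ni at 6 months against 1 month; values beyond 3 are drawn in the last bin. The rising genes have medians of 0.52 in both panels, and all genes have medians of -0.06.

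Among the genes called over 5 metals, ENSRNOG00000038406 had the largest rise. In Ta it was at 0, 0.248 and 0.461 CPM (lowest, median and highest library) at 3 months and at 0.293, 1.09 and 3.63 CPM at 6 months. In Ni it was at 0, 0.421 and 0.748 CPM and then at 0.629, 0.991 and 2.00 CPM. Its libraries overlapped between the times in each metal, and in Co 2 of 7 libraries at 6 months were above every 3 month library. The log2 fold change over 5 metals was 1.59 ± 0.27 (SE; edgeR, adjusted p = 4.42e-06).

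ENSRNOG00000060187 came next, with a log2 fold change over 5 metals of 1.40 ± 0.28 (SE; edgeR, adjusted p = 5.38e-05). In Co it went from 0, 0.611 and 2.97 CPM at 3 months to 2.18, 4.05 and 5.86 CPM at 6 months, where 5 of 7 libraries were above every 3 month library. In Ta it went from 0, 0.739 and 4.66 CPM to 2.27, 3.72 and 6.87 CPM. In P it went from 0.252, 2.14 and 3.58 CPM to 3.00, 4.23 and 4.74 CPM. The 3 month libraries of this gene were split in each of these metals, with some near 0 and others at the level of 6 months. The split went by replicate number. Replicates 1 to 4 and 5 to 8 had 15 to 67 and 0 to 6 counts in Ta, and 11 to 42 and 0 to 6 in Co. In P they had 35 to 61 and 4 to 42, and in Ni they lay mostly the other way, at 1 to 13 and 3 to 84. In DU they overlapped only through replicate 2, which stood apart and had 0 counts. There replicates 1, 3 and 4 had 46 to 70 and replicates 5 to 8 had 22 to 43.

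ENSRNOG00000037435 was called over 5 metals too, with a log2 fold change of 1.31 ± 0.18 (edgeR, adjusted p = 1.15e-07). Its largest step was in Co, from 1.21, 2.40 and 3.43 CPM at 3 months to 5.05, 9.40 and 14.2 CPM at 6 months, where the groups did not overlap. In Ta it went from 1.14, 2.17 and 4.32 CPM to 3.04, 6.63 and 9.60 CPM, with 6 of 8 libraries above every 3 month library. In P it went from 1.96, 3.71 and 7.05 CPM to 3.79, 4.85 and 8.43 CPM, and most of the libraries overlapped.

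The gene of highest level, ENSRNOG00000008830, was 1.70-fold higher at 6 than at 3 months over 5 metals (log2 fold change 0.76 ± 0.16, edgeR, adjusted p = 0.000116). In Ni it went from 106, 235 and 420 CPM to 362, 420 and 481 CPM. In Ni the highest library was 3.96 times the lowest at 3 months and 1.33 times at 6 months, whereas in Co at 6 months it was 3.87 times. Its 3 month libraries split by replicate number. Replicates 1 to 4 and 5 to 8 had 4900 to 11610 and 449 to 1701 counts in Ta, and 2381 to 5931 and 960 to 1622 in Co. In Ni they lay the other way, at 1595 to 2718 and 3834 to 6280, and in P and DU they overlapped. The 6 month libraries of Ta had 4167 to 8244 counts. The part of this split in the fold change was not tested. ENSRNOG00000018233 moved less, by 0.27 ± 0.07 (edgeR, adjusted p = 0.00176). In Ni it was at 155, 183 and 210 CPM at 3 months and at 165, 192 and 236 CPM at 6 months, so that in Ni the groups overlapped.

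Of the 150 genes, 40 were not called over 5 metals, 32 of them with a log2 fold change above 0 and 8 below 0. Their changes ran from -0.25 to 0.90 with a median of 0.20. Their scores had a median of 0.50, against 0.56 for the 110 genes called, and their levels at 12 months a median of 21.9 CPM, against 14.4 CPM. The gene with the highest score was among them. ENSRNOG00000009047 had a log2 fold change of 0.33 ± 0.30 (edgeR, adjusted p = 0.377). In Ta it was at 6.55, 18.7 and 108 CPM at 3 months and at 5.56, 25.4 and 51.9 CPM at 6 months, and in DU at 0, 4.90 and 44.1 CPM and then at 9.72, 31.0 and 48.8 CPM. Of the 12 genes with the highest scores, 9 were called over 5 metals.

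**Figure D3:**
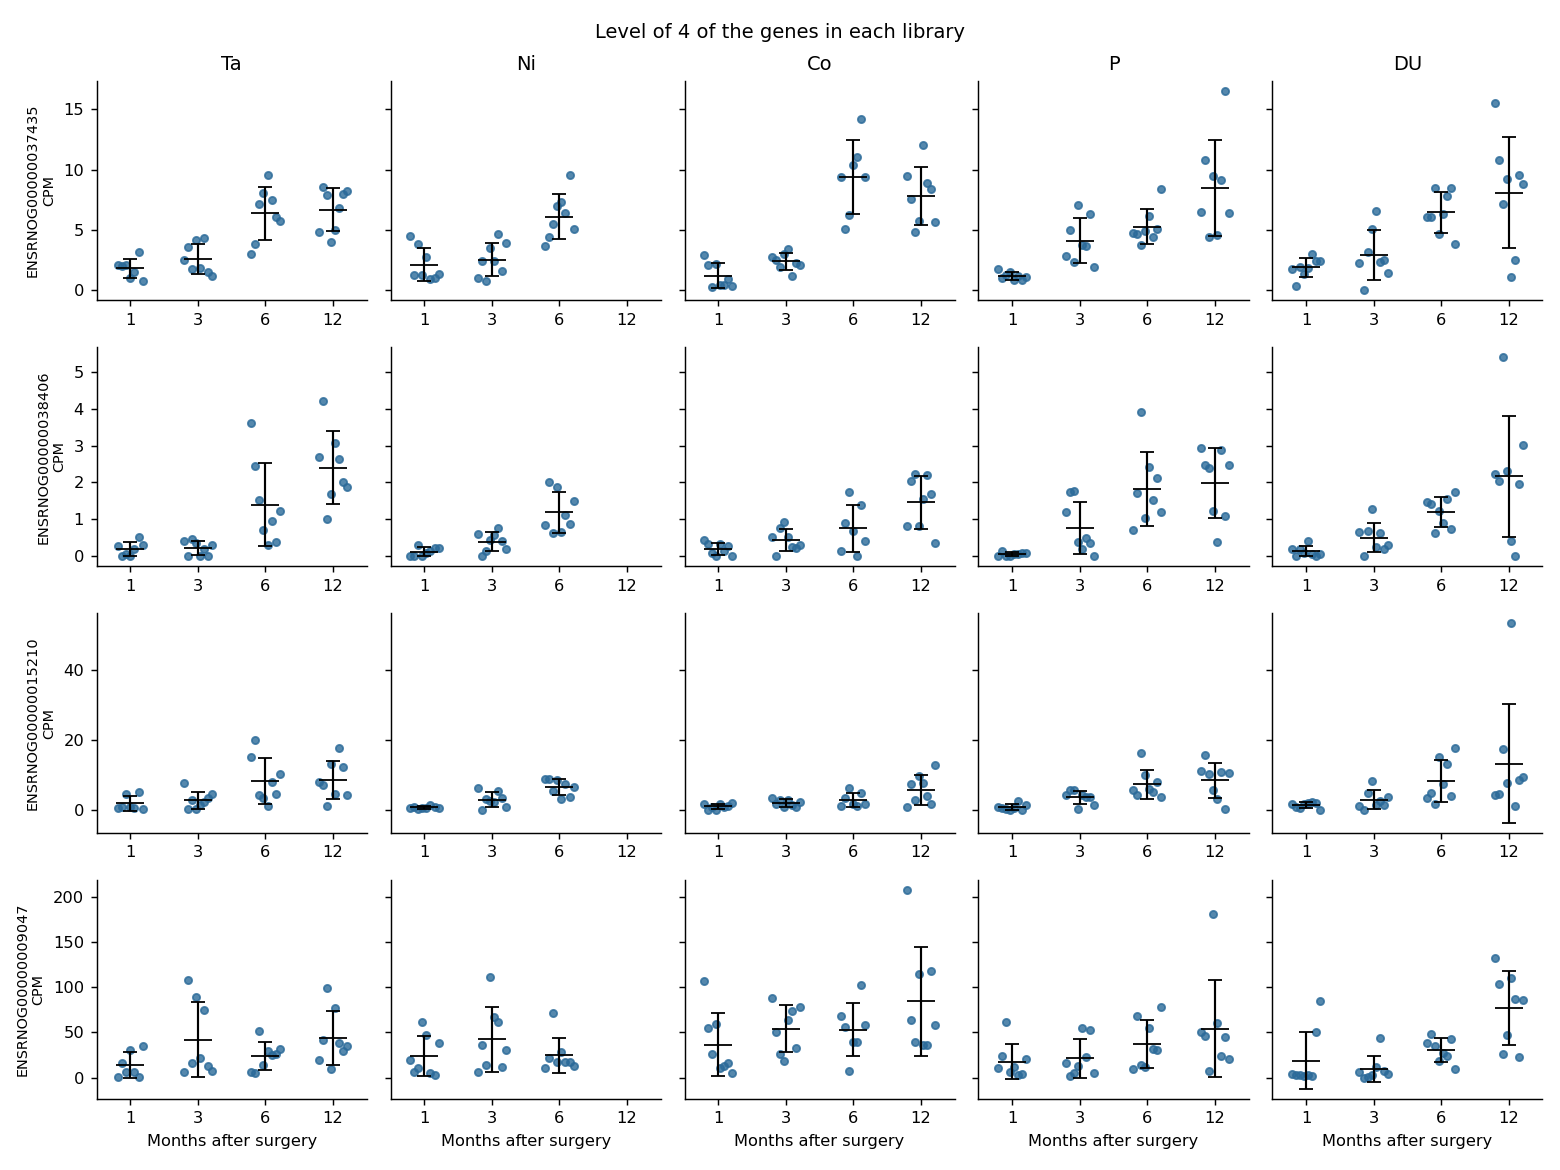
CPM of 4 of the genes in each library, by metal and months after surgery; points are libraries, and the lines give the group mean and SD, on linear axes that differ between genes. ENSRNOG00000037435 is higher at 6 than at 3 months in Co with no overlap, ENSRNOG00000015210 is higher at 6 months than at 1 month in Ni with no overlap, and ENSRNOG00000009047 spreads from 0.387 to 35.2 CPM within Ta at 1 month alone.

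Within single metals, where each comparison had 15 or 16 libraries, fewer genes passed. In Ni, 70 of 149 genes tested were higher at 6 than at 3 months and 1 was lower (edgeR, adjusted p under 0.05), where 12.1% of all genes were called higher and 13.3% lower. Over the 149 genes tested the median log2 fold change was 0.61, against -0.03 over all genes. The largest rise was in ENSRNOG00000058866, which went from 1.28, 2.79 and 5.37 CPM at 3 months to 5.83, 9.43 and 19.0 CPM at 6 months with no overlap (log2 fold change 1.77 ± 0.29, edgeR, adjusted p = 0.00259). The same gene did not separate the times in Co, where it was at 0.563, 13.1 and 39.8 CPM at 3 months and at 3.13, 6.70 and 12.2 CPM at 6 months.

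ENSRNOG00000016706 was the next in Ni, from 0.868, 2.53 and 12.4 CPM to 2.83, 12.5 and 33.6 CPM. Its groups overlapped, with a log2 fold change of 1.74 ± 0.59 (edgeR, adjusted p = 0.0422), and 13 of 22 alternative settings lost the call, with adjusted p from 0.0132 to 0.0890. The one gene called lower in Ni was ENSRNOG00000057347, from 62.9, 108 and 164 CPM at 3 months to 31.7, 65.1 and 83.0 CPM at 6 months. It fell by 0.74 ± 0.20 on the log2 scale (edgeR, adjusted p = 0.0143). At 1 month in Ni this gene was at 23.3, 63.8 and 89.1 CPM, so its 3 month libraries were the high ones.

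In Co, 62 of 149 genes tested were higher at 6 than at 3 months (edgeR, adjusted p under 0.05), where 10.7% of all genes were called higher and 17.7% lower. The median over the genes was 0.85, against 0.01 over all genes. The largest rises were in ENSRNOG00000060187 (log2 fold change 2.56 ± 0.70, edgeR, adjusted p = 0.0183) and ENSRNOG00000037435 (2.52 ± 0.36, adjusted p = 0.00643), whose levels are given above. Without replicate 1 of Co at 6 months 85 genes were called, 84 of them higher, where 4042 of all 12702 genes tested were called. With that library 3547 of 12487 were. Scaling by library totals shifted the median of all genes in Co by more than 0.5, to -0.53, and then 27 of the genes were called, 26 of them higher. Other libraries that moved the count by over 1.5 times were replicates 2, 6 and 8 of Co at 3 months, without which 33, 32 and 36 were called, and replicates 4 and 6 at 6 months, without either of which 39 were. Over all genes 1861, 1817 and 1871 were then called without the 3 month libraries, and 2316 and 2355 without the 6 month libraries.

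In Ta, the sham metal, 38 of 149 genes tested were higher at 6 than at 3 months (edgeR, adjusted p under 0.05), where 10.5% of all genes were called higher and 13% lower. The median over the genes was 0.55, against -0.02 over all genes, and 66 (44.3%) had an unadjusted p under 0.05, where 40.4% of all genes did. The largest rises were in ENSRNOG00000060187 (log2 fold change 1.70 ± 0.59, edgeR, adjusted p = 0.0469) and ENSRNOG00000042536 (1.66 ± 0.46, adjusted p = 0.0193). The latter went from 3.18, 7.69 and 41.0 CPM to 19.9, 42.9 and 66.9 CPM, with 4 of 8 libraries at 6 months above every 3 month library. Its replicates 1 to 4 at 3 months had 142 to 590 counts, and replicates 5 to 8 had 42 to 99. For ENSRNOG00000060187, 14 of 22 alternative settings lost the call in Ta. With library totals in place of TMM factors 9 of the genes were called in Ta. Leaving out replicate 5, 6 or 7 of Ta at 3 months left 23, 25 and 25, and leaving out replicate 3 at 6 months left 25. Over all genes these fits called 1738, 1683, 2071 and 2052, against 2850 with every library.

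P and DU gave no call among the genes at this threshold. In P, edgeR called 0 of 150 genes higher between 3 and 6 months, where it called 0.0329% of all genes higher and 0.00824% lower, and 65 of the set (43.3%, and 13.3% of all genes) were below 0.05 before adjustment. At the adjusted threshold DESeq2 called 3 of the set (129 of all genes), and limma voom with sample weights 0 (1 of all genes). In DU, edgeR called 0 of 150, where it called 0.0325% of all genes higher and 0% lower, and 23 of the set (15.3%, and 10.5% of all genes) were below 0.05 before adjustment. At the adjusted threshold DESeq2 called 3 of the set (86 of all genes), and limma voom with sample weights 7 (271 of all genes). The median log2 fold change over the genes was 0.47 in P and 0.33 in DU, against -0.01 and 0.00 over all genes, and 140 and 131 of the 150 were above 0. Without replicate 2 of DU at 3 months edgeR called 2 in DU (48 of all genes), and the median there was 0.21.

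**Figure D4:**
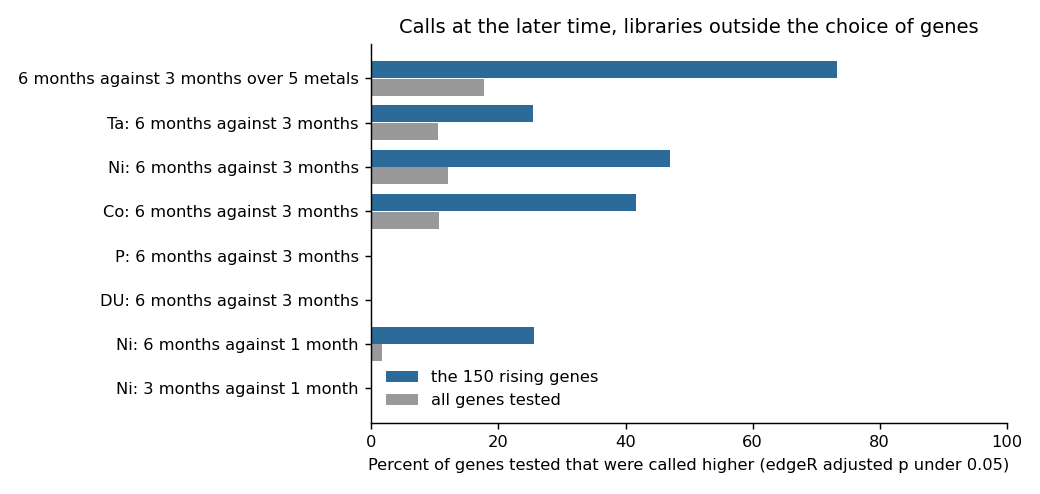
Percent of the rising genes tested (blue) and of all genes tested (grey) that edgeR called higher at the later time, adjusted p under 0.05. The comparisons are those between times, of libraries that did not choose the genes. The blue bar is the longer one over 5 metals, in Ta, Ni and Co at 6 against 3 months and in Ni at 6 months against 1 month; no rising gene was called in P, in DU or in Ni at 3 months against 1 month.

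The 5 metals share no library in these comparisons, so their directions could be set side by side. Of the 149 genes tested in all 5, the fitted change from 3 to 6 months was above 0 in all 5 metals for 93, in 4 for 33, in 3 for 18 and in 2 for 5. Among the 11808 genes tested in all 5 metals, 12.8% were above 0 in all 5. In Ta, Ni and Co together, 20 of the genes were called higher in each of the 3 metals, and 99 in at least 1, where 339 and 2639 of all genes were.

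Whether the change from 3 to 6 months differed between metals was tested with a metal by time term. It did so for 19 of the 150 genes (edgeR, adjusted p under 0.05), where 32.8% of all genes were called; 33 had an unadjusted p under 0.05, or 22.0%, where 44.9% of all genes did. With limma voom and sample weights the shares called were 51.3% and 50.8%. The largest difference was in ENSRNOG00000013484 (edgeR, adjusted p = 0.00237), and it rested on replicate 2 of DU at 3 months, at 1697 CPM where the median of its group was 28.4 CPM. Without both libraries that stood apart its adjusted p was 0.909. ENSRNOG00000004448 was also highest in that library, at 294 CPM against a group median of 18.6 CPM (edgeR, adjusted p = 0.000131), and its adjusted p without both libraries was 0.0128. Over all 150 genes, 28 were called without these libraries. The calls among all genes in that fit are not given here, so nothing is read from the change from 19 to 28.

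ENSRNOG00000037435 was another of the 19 (edgeR, adjusted p = 0.0174), with a log2 fold change from 3 to 6 months of 2.52 in Co, 1.54 in Ta, 1.27 in Ni, 0.94 in DU and 0.43 in P. In contrast, the difference between metals missed the threshold for ENSRNOG00000038406 (edgeR, adjusted p = 0.441), which had 1.34 ± 0.47 in P and 1.21 ± 0.45 in DU. For ENSRNOG00000015210 it missed the threshold as well (adjusted p = 0.942), with values of 0.97 ± 0.41 in Co to 1.53 ± 0.58 in Ta.

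No Ni library entered the choice, so Ni muscle gave a test over the longest span left. Of 148 genes tested, 38 were higher at 6 months than at 1 month (edgeR, adjusted p under 0.05), where 1.63% of all genes were called higher and 2.11% lower. The median log2 fold change over the genes was 0.52, against -0.06 over all genes, 132 of 148 were above 0, and 86 (58.1%) had an unadjusted p under 0.05, where 21.9% of all genes did. The changes of the 38 ran from 0.46 to 2.82, and 12 were over 1. Of the 38, 33 were also higher over 5 metals between 3 and 6 months, as were 153 of the 198 genes called higher in all, and the 2 comparisons share the 6 month Ni libraries. With library totals 23 were called, with a replicate block 12 and with DESeq2 58 (1066 of all genes). The calls over all genes in the block fit are not given here. Leaving out replicate 4 or 8 of Ni at 6 months left 20 and 23, and 182 and 242 of all genes, against 454 with every library.

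The largest rise in Ni was in ENSRNOG00000015210. It was at 0.341, 0.806 and 1.58 CPM (lowest, median and highest library) at 1 month, at 0.0700, 2.92 and 6.51 CPM at 3 months and at 3.25, 7.10 and 9.08 CPM at 6 months. Every 6 month library was above every 1 month library, and the 3 month libraries spanned both. The fold change from 1 to 6 months was 7.04 (log2 2.82 ± 0.26, edgeR, adjusted p = 5.09e-05), and all 22 alternative settings kept the call. In the metals that chose the gene, its medians went from 1.04 CPM at 1 month to 7.64 CPM at 12 months in Ta, and from 0.636 to 10.6 CPM in P.

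ENSRNOG00000039388 had the next rise in Ni, from 0, 0.199 and 2.59 CPM at 1 month to 1.36, 3.95 and 6.45 CPM at 6 months (log2 fold change 2.54 ± 0.58, edgeR, adjusted p = 0.0242). At 3 months it was at 0.278, 2.71 and 9.92 CPM, already spread as high as at 6 months, and 2 of 22 alternative settings lost the call. In Co its medians were 1.83, 3.12, 1.40 and 2.90 CPM at 1, 3, 6 and 12 months, with no steady climb.

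Between 1 and 3 months in Ni no gene of the set passed the threshold. edgeR called 0 of 146 tested, and 0% of all genes, and 28 of the set (19.2%, and 21.9% of all genes) were below 0.05 before adjustment. At the adjusted threshold DESeq2 called 11 of the set (377 of all genes), and limma voom with sample weights 0. The median log2 fold change over the genes was -0.11, against -0.02 over all genes, and 62 of 146 were above 0.

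The metals were also compared with Ta at 3 and at 6 months, 8 comparisons in which the 4 metals of a time share the Ta libraries. edgeR called 1 of the genes in 1 of them, where 147 to 150 were tested. In Co at 3 months 6.17% of all genes were called higher and 0.274% lower, in P at 3 months 0.0989% and 0.239%, and in the other 6 comparisons 0% either way. The median log2 fold change over the genes ran from -0.36 (Co at 3 months) to 0.17 (P at 3 months), and 4 to 28 (2.67% to 19.0%) were past an unadjusted p of 0.05, where 2.73% to 26.5% of all genes were. DESeq2 gave 0 to 9 of the genes and limma voom with sample weights 0 to 75, the highest of each in DU at 3 months, a group that holds the library with 31 of the genes at no count. There DESeq2 called 10.2% of all genes and 6.12% of the set, and limma voom 38.4% and 51.0%; in P at 3 months limma voom called 32.7% and 35.8%.

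The gene called was ENSRNOG00000007964. It was at 2.88, 5.64 and 17.4 CPM in Co at 3 months and at 1.06, 2.32 and 4.16 CPM in Ta at 3 months (log2 fold change 1.25 ± 0.32, edgeR, adjusted p = 0.0269). In Co its mean was 8.11 ± 5.74 CPM (SD, n = 8) at 3 months and 3.83 ± 1.31 CPM (SD, n = 7) at 6 months, a change that missed the threshold (edgeR, adjusted p = 0.243), while in Ni it went (adjusted p = 0.00509) from 1.11, 2.79 and 5.31 CPM at 3 months to 5.71, 6.24 and 7.43 CPM at 6 months, with no overlap. Its change from 3 to 6 months differed between metals (edgeR, adjusted p = 0.000721). Of 6 alternative settings of the Co comparison, 2 lost the call.

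Within groups, the levels of the 150 genes varied together somewhat more than those of other genes. The median correlation between pairs of them, on deviations of log2(CPM + 1) from the group mean over 150 libraries, was 0.33, against 0.22 for pairs of eligible genes. Without both libraries that stood apart these values were 0.27 and 0.19. The points share libraries, depth and scaling, so these values describe the libraries only.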

How the data were processed

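RNA from rat gastrocnemius muscle was sequenced in 150 libraries. Per the labels' protocols, libraries were built with a stranded total RNA kit from 1000 ng and read as pairs of 100 bases. The deposited values are raw counts per gene. Per the submitters' processing notes, the authors used HISAT2 2.0.5, the build Rnor_6.0 and featureCounts 1.5.0-p3. Which annotation release and which strand option were used is not given in the sources used here. Reads may therefore be shared among genes that overlap, lie antisense or are close copies.

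The set of genes and the lists were chosen with earlier results of these data known. Identifiers given are the 2 highest by score and by level at 12 months, and in each comparison up to 2 in each direction with the largest change among those called; other values of these genes are given beside them. The gene called with Co against Ta was the only one called there.

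Genes were kept with filterByExpr, scaled with TMM factors and tested with edgeR 4.0.16 (glmQLFit and glmQLFTest, robust; limma 3.58.1, R 4.3.3), with Benjamini-Hochberg adjustment over all genes tested and a threshold of 0.05, in 17 comparisons of libraries that did not choose the genes. CPM values printed use library totals, with a pseudocount of 1 on the log2 scale. The SE is that of the log2 fold change. Alternatives were DESeq2 1.42.0, its size factors, library totals, no filter, limma voom with sample weights, a replicate block, and leaving out libraries. Leaving out single libraries in the time comparisons was chosen after seeing the data. Replicate numbers did not pair libraries (correlations over 0.1 in 2 to 5 of 7 or 8 pairs). On simulated counts, 89% of 2-fold and 98% of 4-fold changes were called over 5 metals, 60% and 90% in Ni between 1 and 6 months, and 60% and 89% in Ta between 3 and 6 months. Those counts had few changed genes, no metal effect and no outlying library, so the rates may not hold in the data. P and DU alone were not simulated.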

Additional observations from a re-analysis of the deposited data

Results flagged for a closer look

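The mean of log2(CPM + 1) over the 150 genes was examined in 19 groups, and in 3 of them 1 library lay far from the others by Dixon's gap ratio, which chance gives in about 1 of 20 groups. Replicate 1 of Co at 6 months was at 2.34, where the other libraries of its group had means up to 4.06. Replicate 2 of DU at 3 months was at 1.71, and the highest library of its group at 3.86. Replicate 4 of Co at 12 months was at 4.41, above a group median of 4.05.

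The change from 3 to 6 months differed between metals for 19 of the 150 genes, by a test of the metal by time term with edgeR. Over all genes 32.8% were called, and with limma voom and sample weights 51.3% of the set and 50.8% of all genes were.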

How the results depend on the processing

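Membership depended on the scaling: with TMM-scaled totals 107 of the 150 genes were chosen again, and with other level minimums or pseudocounts 124 to 146. Leaving out 1 library at a time gave 111 to 147, the lowest without replicate 6 of DU at 12 months. The count of genes higher over 5 metals, 110, ran from 83 to 124 over 13 settings, and that in Ni between 3 and 6 months, 71 called, from 61 to 88 and without 1 library from 51 to 84. No direction was reversed in any of the results named between times or against Ta. The metal by time results could show no reversal, because only the size of the largest difference was kept. With library totals, 9 genes were called in Ta, 27 in Co, 12 for the metal by time term, 23 in Ni between 1 and 6 months and 4 for Co against Ta at 3 months. That scaling moved the median of all genes to -0.15 over 5 metals and in Ta, to -0.53 in Co and to 0.17 in DU. Over all genes it called 290 higher and 822 lower in Ta (1273 and 1577 with TMM), 223 and 4296 in Co (1331 and 2216), and 123 and 69 in Ni between 1 and 6 months (198 and 256). Its calls over all genes for the metal by time term and for Co against Ta are not given here. With limma voom and sample weights, 97 were called in Ta (45.2% of all genes), 98 in Co (40.0%) and 7 in DU (2.20%). It called 77 for the metal by time term (7039 of all genes). Against Ta at 3 months it called 0 in Co (0.0241% of all genes), 53 in P (32.7%) and 75 in DU (38.4%). Against Ta at 6 months it called 15 in Co (4.76%). With DESeq2, 59 were called in Ta (30.9% of all genes), 3 in P (1.06%) and 3 in DU (0.70%). In Ni it called 58 between 1 and 6 months (8.80%) and 11 between 1 and 3 months (3.11%). Against Ta at 3 months it called 1 in Ni (0.0495%), 6 in Co (11.9%), 2 in P (8.30%) and 9 in DU (10.2%). DESeq2 was not run for the metal by time term. With a replicate block, 112 were called over 5 metals, 37 in Co and 12 in Ni between 1 and 6 months. It called 1 in Ni between 1 and 3 months and 0 for Co against Ta at 3 months. The libraries share only a number, and each library correlated best with its own number in 1 to 3 pairs. The calls over all genes in the block fits are not given here, so these counts are not read as a result about the set. Without the libraries that stood apart, 2 were called in DU (48 of all genes) and 3 for DU against Ta at 3 months. For the latter the calls over all genes are not given here. Without 1 library at a time, the counts ran from 23 to 53 in Ta, from 32 to 90 in Co, from 0 to 1 in P, from 0 to 2 in DU and from 20 to 48 in Ni between 1 and 6 months. Over all genes they ran from 1683 to 3756, 1817 to 4434, 0 to 21, 1 to 73 and 182 to 601 in the same order. The cause was not tested for any of these. Genes near 1 CPM rest on few counts a library, and changes under 2-fold would often be missed within 1 metal.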
